A study of Homo sapiens with 12 samples.

Results

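The genes described here are 36 DNA repair genes in 3 groups: 21 of homologous recombination and its checkpoint kinases, 12 of the Fanconi anaemia pathway and 3 of mismatch repair. They were chosen by name, with earlier results of these data known, from the 59424 genes that were measured, and each of the 36 was found once in both tables and passed the filter on low counts in both cell lines. RNA-sequencing was carried out on 12 libraries in 4 groups of 3 biological replicates. CWR22Rv1, a prostate cancer cell line, carried either a lentiviral control hairpin (shControl) or a lentiviral knockdown of GALNT7 (GALNT7 KD). DU145, another prostate cancer cell line, carried either a lentiviral open reading frame control (OE control) or a GALNT7 overexpression construct (GALNT7 OE). GALNT7 is an enzyme that adds GalNAc sugars to proteins in O-linked glycosylation. The stable lines were made by lentiviral transduction, so all 4 groups carried an integrated vector. The sources used here do not say whether each line was a single clone, and p-values measure only the spread between these libraries.

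Homologous recombination copies an intact sister chromatid to mend a broken DNA end, and the Fanconi pathway unhooks crosslinks between DNA strands and passes the resulting break to the same machinery. Mismatch repair corrects errors that the polymerase leaves behind it, using MutS dimers that find the mismatch and MutL dimers that direct its removal. The first 2 processes work mainly in S and G2 phase, and several tumour suppressors of the prostate, breast and ovary belong to them.

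Library depth was 18364512 to 22264533 reads in CWR22Rv1 and 21628718 to 24356910 in DU145. GALNT7 checked the labels: its normalised count was 999 ± 122 in shControl and 461 ± 53.7 in GALNT7 KD (mean ± SD, n = 3 in each group here and below), and 964 ± 75.8 in OE control and 2181 ± 176 in GALNT7 OE. The log2 fold changes were -1.11 and 1.18. Reads from the construct and from the cell's own gene cannot be told apart. KLK3, which marks CWR22Rv1, averaged 392 in shControl and 0 in OE control. Of the genes listed as markers of DU145, VIM, KRT7 and CAV1 were low in CWR22Rv1, whereas EGFR and CD44 were present in both lines.

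Most of the repair genes rose when GALNT7 was overexpressed in DU145, and 1 passed limma's test when it was knocked down in CWR22Rv1. In DU145, 27 of the 36 rose and 1 fell, at an adjusted p under 0.05 from limma over all genes tested. That comparison was broad: 22.9% of the 18705 genes tested rose and 20.5% fell, so 27 of 36 stands against a background of 22.9% and 1 of 36 against 20.5%. The median log2 fold change of the 36 genes was 0.86, beside -0.01 over all genes tested. In 29 of the 36 all GALNT7 OE libraries lay above all OE control libraries, and in 1 all lay below; over all genes the same held for 28.2% and 27.1%. In CWR22Rv1, 0 of the 36 rose and 1 fell, where 5.28% of the 17906 genes tested rose and 3.79% fell, and the median log2 fold change was -0.03 beside -0.01 over all genes. At an unadjusted p under 0.05, 7 of the 36 were higher in GALNT7 KD and 6 were lower. Over all genes no count was made at that threshold, so whether 7 and 6 exceed the background cannot be said. With edgeR, 0 of the 36 were called higher and 1 lower, beside 884 and 662 of the 17906 genes. DESeq2 called 5 of the 36 in each direction, beside 1490 higher and 1176 lower of the 17906. The libraries did not overlap in 7 genes that were higher and 6 that were lower in GALNT7 KD, against 16.9% and 15.6% of all genes.

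**Figure D1:**
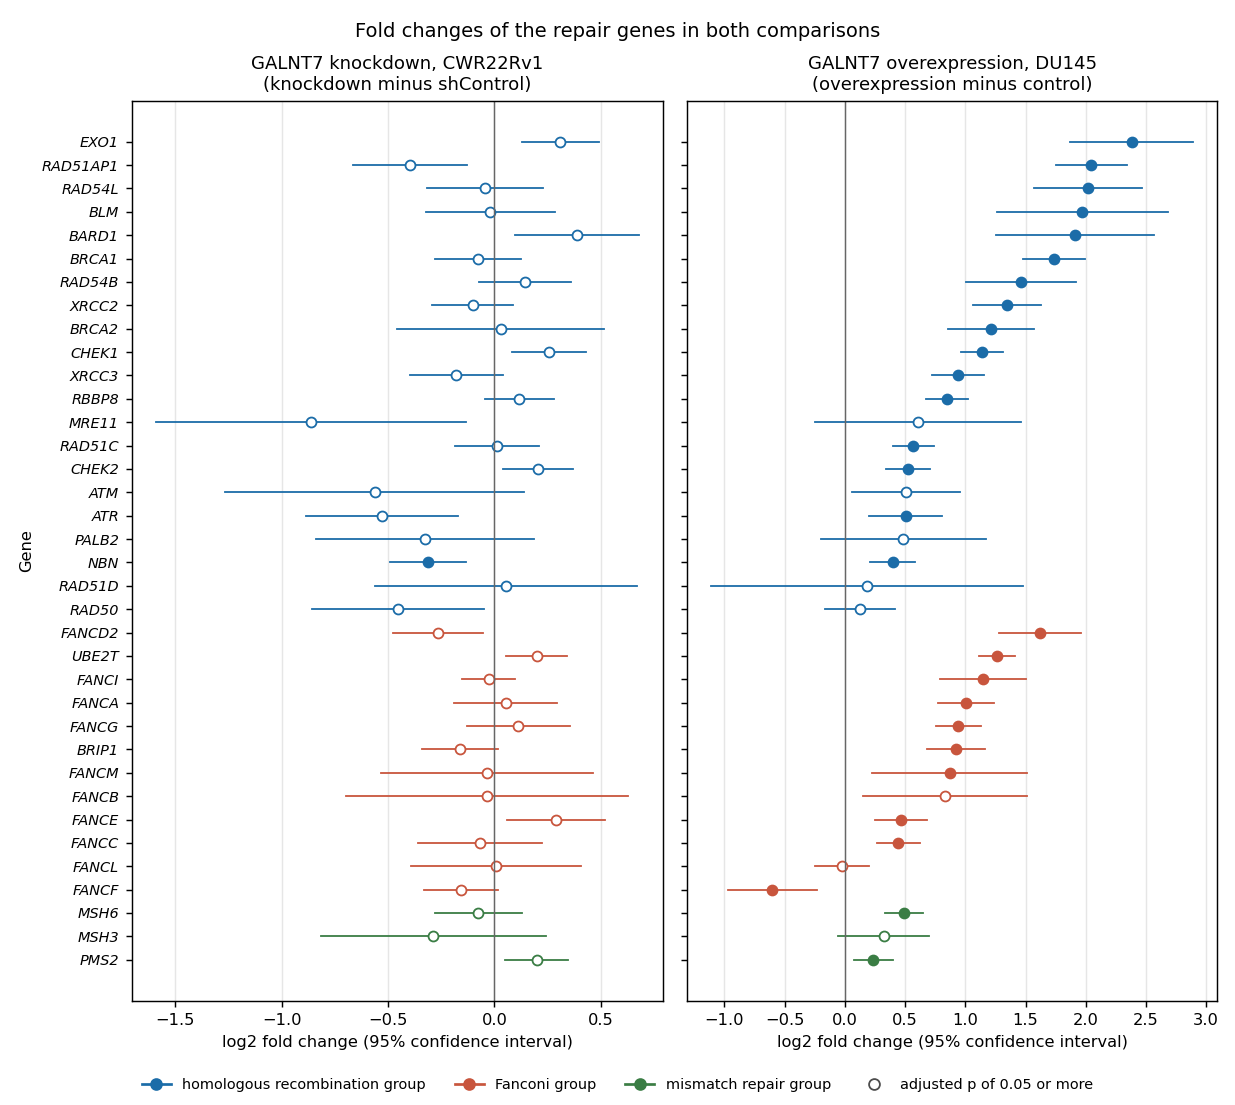
Log2 fold change of each of the 36 repair genes (rows) after GALNT7 knockdown in CWR22Rv1 (left) and GALNT7 overexpression in DU145 (right), with 95% confidence intervals from limma as lines; the horizontal scales of the panels differ. Filled points passed the threshold: 28 genes on the right, 27 of them above 0, and NBN alone on the left.

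The medians of the 3 repair groups differed in DU145, although no test was made between groups. Of the homologous recombination genes 16 of 21 rose, with a median log2 fold change of 0.94 and a range of 0.13 to 2.38. Of the Fanconi genes 9 of 12 rose and FANCF fell, with a median of 0.89 and a range of -0.60 to 1.62. Of the mismatch repair genes 2 of 3 rose, with a median of 0.32 and a range of 0.24 to 0.49. When each library was rescaled to a common 75th percentile, which moved the split of all genes called from 4290 higher and 3842 lower to 3380 higher and 4737 lower, 25 of the 36 repair genes were higher and 1 was lower. In CWR22Rv1 the medians of the homologous recombination, Fanconi and mismatch repair groups were -0.04, -0.03 and -0.08.

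Genes of S and G2/M phase, in which these pathways operate, moved with the overexpression result. All 43 S phase genes of a published cell cycle list were higher in GALNT7 OE, with a median log2 fold change of 1.10, as were all 54 G2/M genes, with a median of 1.70. The S phase list contains 3 of the repair genes, RAD51AP1, EXO1 and BLM. In GALNT7 KD limma called 3 of the 43 S phase genes higher and 2 lower, with a median log2 fold change of 0.01. Of the 54 G2/M genes it called 0 higher and 6 lower, with a median of -0.08 and 39 genes below 0. Over all genes tested in the knockdown 5.28% rose and 3.79% fell, with a median of -0.01. The part of these cell cycle lists in the repair gene result was not tested. In bulk libraries, more cells in S or G2 phase and more RNA per cell cannot be told apart.

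The genes that cut back a broken end and exchange strands included the largest changes. EXO1 (chr1:241847967-241895148, GENCODE 29, GRCh38), an exonuclease that widens the single-stranded end and also serves mismatch repair, had normalised counts of 186, 295 and 349.6 in OE control and 1366, 1416 and 1413 in GALNT7 OE, a log2 fold change of 2.38 ± 0.22 (SE, adjusted p = 0.0002). All overexpression libraries lay far above the controls, and the spread came almost wholly from the controls. RAD51AP1, a partner of the recombinase, rose from 157, 163 and 138 to 553, 636 and 712, with a log2 fold change of 2.04 ± 0.12 (adjusted p = 3.6e-05). RAD54L and RAD54B, related motor proteins of strand exchange, rose by log2 fold changes of 2.02 ± 0.19 and 1.46 ± 0.19. RAD54B reads are partly shared with FSBP, a gene on the same strand inside its span, and their sum rose by 1.43. BLM, a helicase that dissolves joined chromatids, was 177, 114 and 197 in OE control and 445, 895 and 607 in GALNT7 OE. The groups did not overlap, but the libraries within each differed widely.

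BRCA1 and its partner BARD1, which together form a ubiquitin ligase that promotes end resection and recombinase loading, both rose. BRCA1 (chr17:43044295-43170245) went from 612, 468 and 561 to 1696, 1886 and 1870.2, a log2 fold change of 1.74 ± 0.11 (adjusted p = 4.1e-05). BARD1 went from 159, 316 and 243 to 823, 702 and 1136, a log2 fold change of 1.91 ± 0.28 (adjusted p = 0.0016). BRCA2, which carries the recombinase to DNA, was 285, 275 and 285 in the controls and 515, 734 and 746 after overexpression, a log2 fold change of 1.22 ± 0.15 (adjusted p = 0.00079). PALB2, the bridge between BRCA1 and BRCA2, did not pass the test: its values were 262, 539 and 569 against 662, 554 and 601, and without the low OE control replicate 1 its log2 fold change fell from 0.48 to 0.12.

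The recombinase paralogues, small relatives that steady the filament on DNA, split between clear rises and no call. XRCC2, XRCC3 and RAD51C rose by log2 fold changes of 1.34 ± 0.12, 0.94 ± 0.09 and 0.57 ± 0.07. RAD51D was not measured well enough to place: its DU145 counts were 388, 882 and 889 in OE control and 1116, 1182 and 336 in GALNT7 OE. The log2 fold change was 0.18 with a 95% confidence interval of -1.11 to 1.48. The within-group SD of 0.87 on the log2 scale was larger than that of 99.0% of genes with a mean count of at least 100. Summed with the overlapping readthrough gene RAD51L3-RFFL, it had a log2 fold change of 0.20 (adjusted p = 0.79).

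Among the sensors and kinases, the checkpoint kinase of stalled forks moved most. CHEK1 rose from 898, 860.1 and 789 to 1839, 1779.8 and 1988, a log2 fold change of 1.14 ± 0.07 (adjusted p = 5e-05), and ATR, the kinase that activates it, rose by 0.50 ± 0.13 (adjusted p = 0.018; 0.061 without OE control replicate 2 and 0.059 without replicate 3). CHEK2, the kinase downstream of ATM, rose by 0.52 ± 0.08 (adjusted p = 0.0018). The 4 pseudogene copies of CHEK2 were nearly silent, with a summed count of 2.3 in OE control. ATM itself was higher in every overexpression library, at 1410.2, 2388 and 1590.1 against 1283, 1293 and 1122, but its log2 fold change of 0.51 missed the threshold (adjusted p = 0.067). It passed with DESeq2 (adjusted p = 0.017) and without GALNT7 OE replicate 1 (adjusted p = 0.032).

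**Figure D2:**
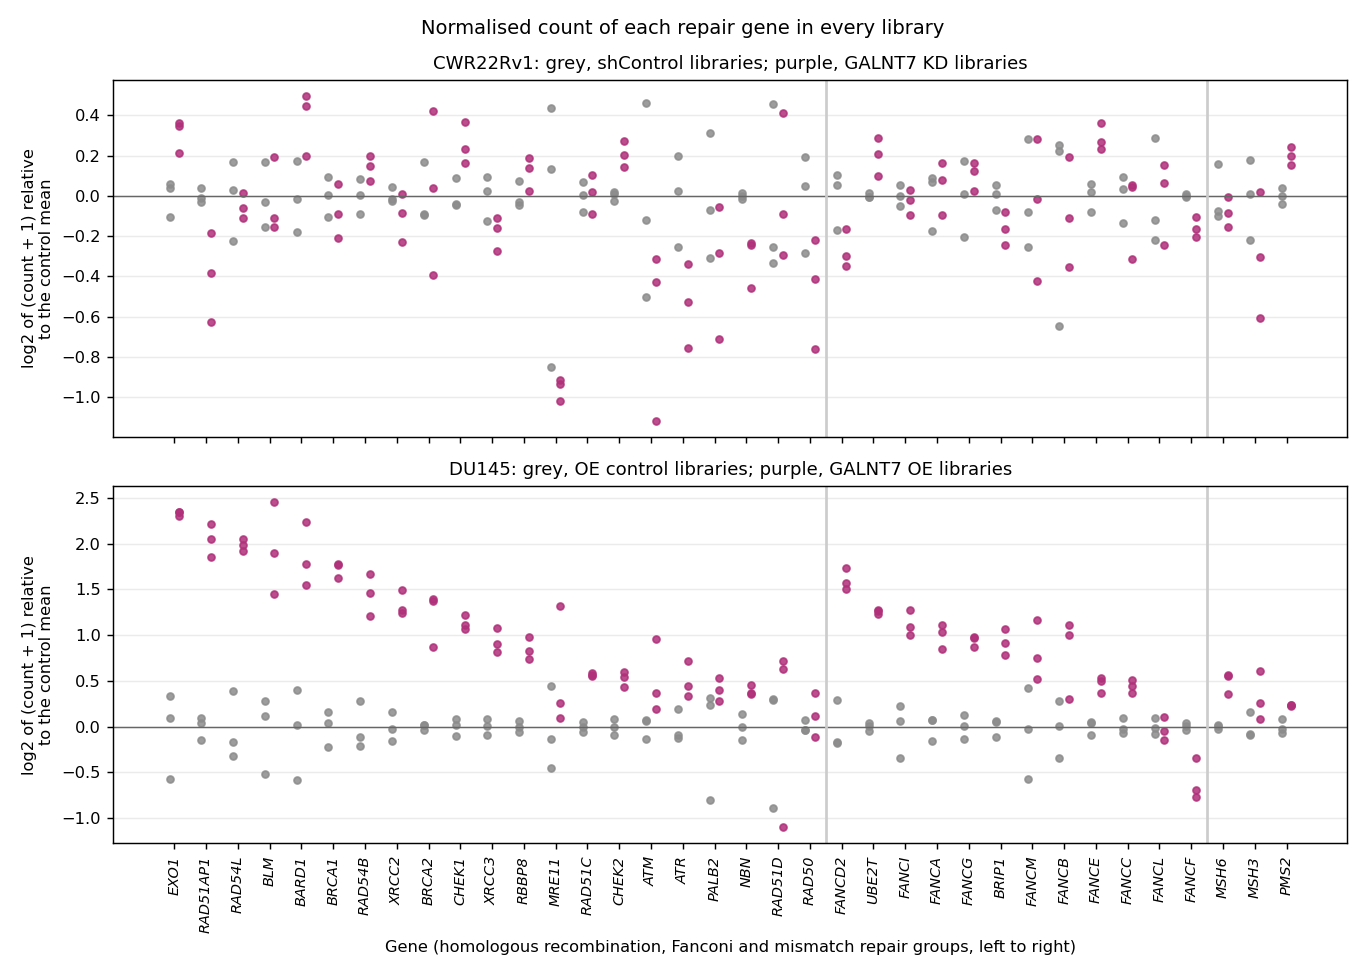
Normalised count of each repair gene in every library, as log2 of (count + 1) relative to the mean of the control group of the same line; CWR22Rv1 above, DU145 below, with control libraries in grey, GALNT7 KD or GALNT7 OE libraries in purple, and lines between the 3 repair groups. In DU145 the purple points lie above all grey points in 29 genes, and below them in FANCF alone; in CWR22Rv1 the groups overlap in 23 genes.

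The end-binding complex of MRE11, RAD50 and NBN, which tethers broken ends and begins to trim them, gave the only call in the knockdown by limma and by edgeR. NBN was 2148, 2166 and 2122 in shControl and 1812, 1826 and 1559 in GALNT7 KD, a log2 fold change of -0.31 ± 0.07 (adjusted p = 0.049). By limma it was the only repair gene called in both lines and was called in opposite directions: in DU145 it went from 1803, 1632 and 1485 to 2093, 2123 and 2245, a log2 fold change of 0.40 ± 0.08 (adjusted p = 0.0067). The knockdown call lay at the threshold and was lost when any library other than GALNT7 KD replicate 3 was left out, with an adjusted p of up to 0.14, and also without the filter on low counts (adjusted p = 0.070) and without the trend (adjusted p = 0.11). With DESeq2, other repair genes were called in both lines as well. BARD1, EXO1, CHEK1, UBE2T and PMS2 were higher in both GALNT7 KD and GALNT7 OE. RAD51AP1, ATR and FANCD2 were lower in GALNT7 KD and higher in GALNT7 OE. MRE11 and RAD50 were not called in either line by limma. MRE11 was 418, 1021 and 828 in shControl and 394, 400.0 and 372 in GALNT7 KD, a log2 fold change of -0.86 with a 95% confidence interval of -1.59 to -0.13. Every knockdown library lay below every control, but shControl replicate 1 lay close to them, and without it the log2 fold change was -1.24 (adjusted p = 0.013). MRE11 also passed with DESeq2 on all libraries of the knockdown, with a log2 fold change of -0.96 (adjusted p = 0.013). RAD50 had a log2 fold change of -0.45 in the knockdown (adjusted p = 0.15), or -0.42 when summed with the gene AC116366.3 that shares its exons (adjusted p = 0.074). RBBP8, the cofactor that switches on the complex's nuclease, rose in DU145 from 1980.0 ± 86.7 to 3576 ± 304, a log2 fold change of 0.85 ± 0.07, and did not pass the test in CWR22Rv1 (log2 fold change 0.12).

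The Fanconi core complex, an assembly that attaches ubiquitin to FANCD2 and FANCI, did not move as a unit in DU145. UBE2T, the conjugating enzyme that supplies the ubiquitin, rose from 506, 485 and 515 to 1183, 1211 and 1219.9, a log2 fold change of 1.26 ± 0.06 (adjusted p = 1.5e-05), with little spread in either group. FANCA and FANCG, which bind each other within the core, rose by 1.00 ± 0.10 and 0.94 ± 0.08, and FANCC and FANCE by 0.44 ± 0.08 and 0.47 ± 0.09. FANCL, the ligase subunit that works with UBE2T, was 521, 590.1 and 544 in OE control and 595, 499 and 534 in GALNT7 OE. Its log2 fold change was -0.03, with a 95% confidence interval of -0.25 to 0.20. FANCF (chr11:22622890-22625841), an adaptor of the core, fell: it was 119, 116 and 122 in OE control and 73.2, 93.3 and 69.2 in GALNT7 OE, a log2 fold change of -0.60 ± 0.16 (adjusted p = 0.019). The call of FANCF was lost when any library other than GALNT7 OE replicate 2 was left out (adjusted p up to 0.060), and with quantile normalisation (log2 fold change -0.38, adjusted p = 0.094). FANCB, the least expressed of the 36 genes in DU145 per kb of exon, was 31.5, 24.5 and 38.3 in the controls and 39.1, 63.8 and 69.2 after overexpression, and just missed the threshold (log2 fold change 0.83, adjusted p = 0.054). Without GALNT7 OE replicate 1 its adjusted p was 0.020, and with quantile normalisation 0.019.

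Both targets of the core rose. FANCD2 went from 414, 410.1 and 571 to 1553, 1323 and 1379, a log2 fold change of 1.62 ± 0.14 (adjusted p = 0.00017), and FANCI from 922, 1036 and 696 to 1888, 1779.8 and 2151, a log2 fold change of 1.15 ± 0.15 (adjusted p = 0.0011). BRIP1, a helicase bound to BRCA1, rose by 0.92 ± 0.10. FANCM, the translocase that anchors the core at a stalled fork, rose by 0.87 ± 0.27 (adjusted p = 0.038), a call lost when OE control replicate 1 or 3 or GALNT7 OE replicate 1 or 2 was left out, with adjusted p-values between 0.081 and 0.11, and after rescaling to a common 75th percentile (adjusted p = 0.056) or without the trend (adjusted p = 0.072). In CWR22Rv1 none of the 12 Fanconi genes was called by limma or edgeR. At an unadjusted p under 0.05 there were 3, with no count over all genes to set beside them. DESeq2 called 2, UBE2T (adjusted p = 0.024) and FANCD2 (log2 fold change -0.27, adjusted p = 0.035). Over all 17906 genes it called 1490 higher and 1176 lower. UBE2T was again among the tightest, at 2753, 2718 and 2713 in shControl and 3147, 3330.2 and 2924 in GALNT7 KD, a log2 fold change of 0.20 (adjusted p = 0.089 with limma).

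Besides NBN, the homologous recombination genes with the lowest adjusted p from limma in the knockdown were 4 that missed the threshold, at 0.052 to 0.079. All 4 passed with DESeq2 on the same libraries, which called 2666 genes in all where limma called 1623. EXO1 was 1278, 1295 and 1153 in shControl and 1441, 1596 and 1581 in GALNT7 KD, a log2 fold change of 0.31 (adjusted p = 0.052 with limma, 0.0054 with DESeq2 and 0.045 among genes with a mean count of at least 20). CHEK1 had a log2 fold change of 0.26 (adjusted p = 0.079, and 0.019 with DESeq2) and ATR one of -0.53 (adjusted p = 0.077, and 0.014 with DESeq2). RAD51AP1 was 1506, 1557 and 1487 in shControl and 1164, 1337 and 983 in GALNT7 KD, a log2 fold change of -0.40 (adjusted p = 0.077), and passed without GALNT7 KD replicate 2 (adjusted p = 0.038) and with DESeq2 (adjusted p = 0.015). BARD1 was called by DESeq2 as well, with a log2 fold change of 0.38 (adjusted p = 0.044). RAD51AP1 lies on chromosome 12, where 83.2% of the other 921 genes tested lay below 0 and their median was -0.28 on the log2 scale. Relative to that median its log2 fold change was -0.12, so it stood among its neighbours on the chromosome.

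The repair genes as a whole stood at different places among all genes in the 2 lines. Levels were divided by exon length and ranked within each line, because the tables of the 2 lines were normalised separately and no test was made between them. In shControl the median percentile of the 36 genes was 67.2, meaning that a typical repair gene exceeded 67.2% of tested genes, and in OE control it was 46.5. After overexpression it was 62.4 in DU145, and after knockdown it was 66.5 in CWR22Rv1. The homologous recombination group had median percentiles of 63.1 in shControl and 45.9 in OE control, and the Fanconi group 69.0 and 46.4. The median of the 3 mismatch repair genes was 68.6 in shControl, the value of MSH6, and 70.2 in OE control, the value of PMS2. MSH3 and MSH6 stood at higher percentiles in OE control than in shControl, and PMS2 at a lower one.

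The 3 mismatch repair genes had widely different levels. MSH3 and MSH6 are MutS subunits that share a partner, with MSH6 finding single mismatches and MSH3 finding larger loops, and PMS2 is the nuclease subunit of MutL. MSH3 (chr5:80654648-80876460) was the least expressed of the 36 genes in CWR22Rv1, at 12.9 ± 1.80 normalised counts per kb of exon, above only 23.0% of tested genes. Its counts there were 69.1, 52.2 and 61.3 in shControl and 39.6, 49.1 and 61.6 in GALNT7 KD, resting on 41 to 74 reads a library. In DU145 it stood at 42.9 ± 4.27 per kb, above 38.3% of tested genes and in place 28 of the 36. MSH6 (chr2:47695530-47810101) was at 160.3 ± 16.1 per kb in shControl and 213 ± 3.38 in OE control, above 68.6% and 73.5% of tested genes. PMS2 (chr7:5973239-6009125) was at 261 ± 7.45 and 184 ± 10.3 per kb, above 79.0% and 70.2%. Per kb of exon, PMS2 thus ranked above MSH6 in CWR22Rv1 and below it in DU145, with no overlap between the libraries of any group. MSH3 was lowest in both. The order of PMS2 and MSH6 in CWR22Rv1 depended on the exon length used, which merged all annotated exons. That length was 10993 bases for MSH6 and 3936 for PMS2. In normalised counts MSH6 lay above PMS2 in every library of both lines. In shControl it was 1674, 1966 and 1645 against 1028, 1056 and 997 for PMS2.

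With GALNT7 overexpressed, MSH6 rose from 2302, 2371 and 2362 to 2999.7, 3438 and 3468, a log2 fold change of 0.49 ± 0.07 (adjusted p = 0.0012). PMS2 went from 712, 693 and 771 to 853, 850.2 and 857, a log2 fold change of 0.24 ± 0.07 (adjusted p = 0.028). This call was lost when any library other than OE control replicate 3 was left out, when the libraries were rescaled to a common 75th percentile (log2 fold change 0.14, adjusted p = 0.16) and with quantile normalisation (adjusted p = 0.11). PMS2 has 11 pseudogenes in the table, near-identical copies between which short reads cannot be placed with certainty. They summed to 1413 in OE control and 1673 in GALNT7 OE, more than PMS2 itself, and PMS2 with its copies gave a log2 fold change of 0.24 (adjusted p = 0.0084). MSH3 was 189, 225 and 191 in OE control and 214, 241 and 308 in GALNT7 OE, overlapping groups with a log2 fold change of 0.32 and a 95% confidence interval of -0.05 to 0.70. In the knockdown PMS2 was higher in every library, at 1179, 1214 and 1141 against 1028, 1056 and 997, with a log2 fold change of 0.20 that missed the threshold (adjusted p = 0.099 with limma, 0.047 with DESeq2) and fell to 0.09 with the copies added (adjusted p = 0.26).

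**Figure D3:**
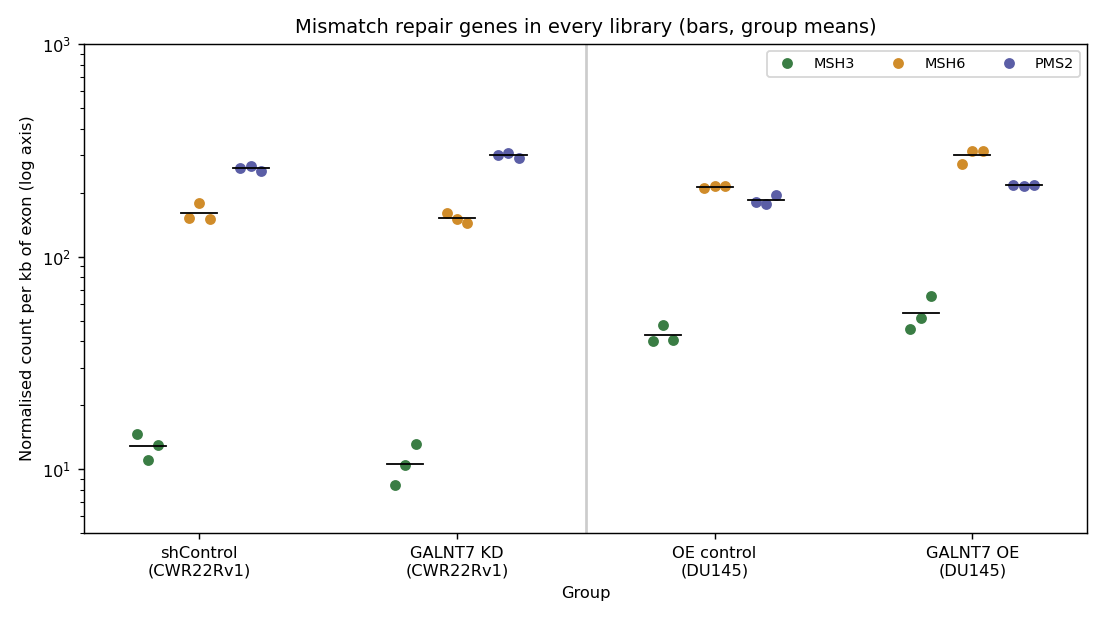
Normalised count per kb of exon (log axis) of MSH3, MSH6 and PMS2 in every library of the 4 groups, with bars at the group means. Levels are comparable within a line and not between lines, and the order of MSH6 and PMS2 in CWR22Rv1 depends on the exon lengths used. MSH3 sits between 8.42 and 14.7 per kb in all CWR22Rv1 libraries and between 40.1 and 65.5 in all DU145 libraries, below the other genes throughout.

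Head-to-head pairs, in which a neighbouring gene starts within 1000 bases on the opposite strand, were examined for 15 of the 36 genes. Not every such pair is reported here. In DU145, 14 pairs could be tested, and the partners had a median log2 fold change of 0.17 where the repair genes of those pairs had 0.85. Of the 15 pairs, the one not tested there was FANCF, which fell (log2 fold change -0.60), with GAS2, whose counts were too low to test. Of the partners 3 of 14 rose and 1 fell, near or below the 22.9% and 20.5% of all genes. In 3 pairs both genes rose: CHEK2 with HSCB, a mitochondrial iron-sulphur cochaperone (0.52 and 0.62), FANCM with FKBP3, a prolyl isomerase (0.87 and 0.44) and PMS2 with AIMP2, a scaffold of the tRNA synthetase complex (0.24 and 0.72). The FANCM call was lost in 4 and the PMS2 call in 5 of the fits with 1 library left out. Both were also lost after rescaling to a common 75th percentile. BRCA1 and NBR1, an autophagy receptor whose start lies 236 bases away, were called in opposite directions. NBR1 was 8868 ± 607 in OE control and 5248 ± 165 in GALNT7 OE, a log2 fold change of -0.75 ± 0.06 (adjusted p = 9.8e-05). In CWR22Rv1, 1 partner rose and 1 fell. NBR1 went from 3665 ± 53.8 to 4499 ± 177 with GALNT7 knocked down, a log2 fold change of 0.30 ± 0.05 (adjusted p = 0.014), while BRCA1 had one of -0.08. AIMP2 fell from 1795 ± 17.1 to 1499.9 ± 58.1, a log2 fold change of -0.26 ± 0.06 (adjusted p = 0.036), where PMS2 had 0.20.

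**Figure D4:**
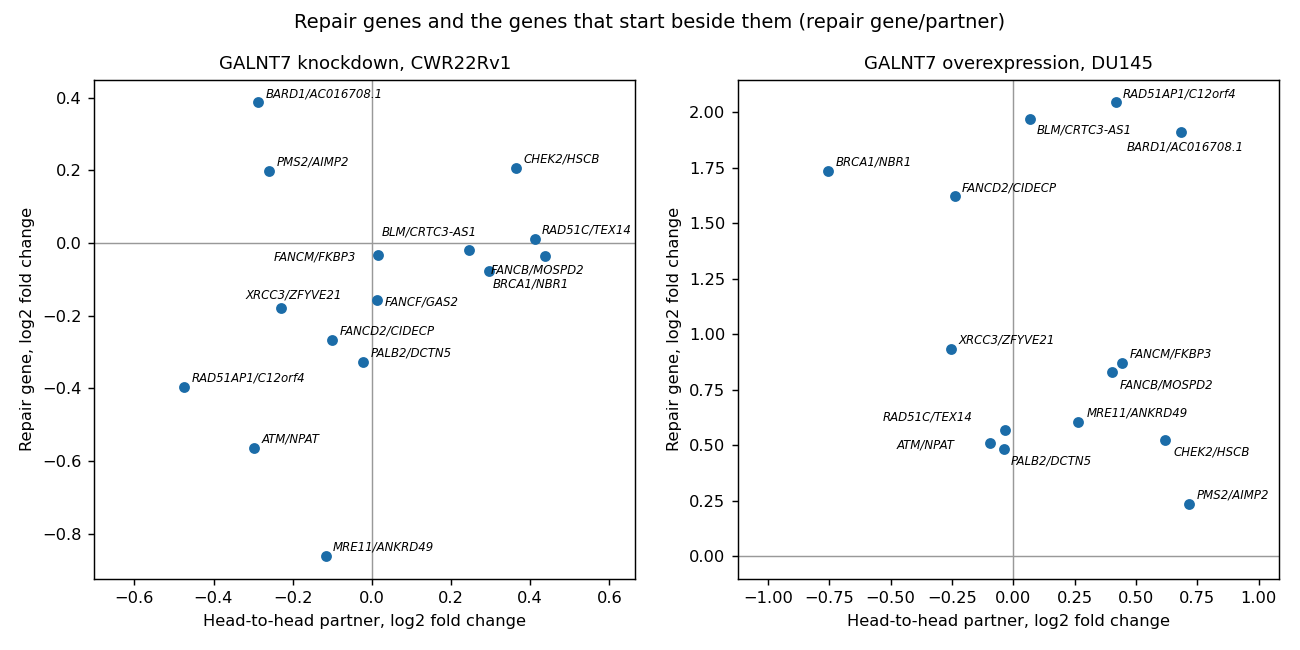
Log2 fold change of each repair gene (vertical) against that of the gene that starts beside it on the other strand (horizontal), for GALNT7 knockdown in CWR22Rv1 (left, 15 pairs) and overexpression in DU145 (right, 14 pairs). On the right all repair genes shown lie above 0 whereas the partners lie on both sides, with BRCA1 and NBR1 furthest to the left. FANCF, which fell, is missing on the right because its partner GAS2 was not tested in DU145.

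The promoters of the repair genes were searched for 3 motifs that are common at cell cycle genes, since most of the genes moved together in DU145. E2F factors bind words such as TTTCCCGC, TTTGGCGC, TTTCGCGC and TTTGCCGC, NF-Y binds CCAAT, and the CHR element TTTGAA is bound by the complexes that time late cell cycle genes. Windows ran from 250 bases before to 50 bases after each RefSeq start (GRCh38.p14), and both strands were read; 33 of the 36 genes had a window. An E2F word was found in 8 of the 33 (24.2%), against 3.99% of 27305 genes with a window, CCAAT in 17 (51.5%) against 39.7%, and TTTGAA in 4 (12.1%) against 18.2%. The 27305 genes were not limited to those tested in these lines, so the shares are not matched for expression or base content. The E2F words overlap each other only in MSH3. The 8 genes include all 3 mismatch repair genes, the group with the smallest median, and 7 of the 8 are shown to let their words be compared; each line is 30 bases read along the gene's strand, with the E2F word or its reverse complement in capitals.
EXO1 (chr1:241848197-241848226, plus strand): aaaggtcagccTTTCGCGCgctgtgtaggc
XRCC2 (chr7:152676102-152676131, minus strand): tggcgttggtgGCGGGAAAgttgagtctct
FANCD2 (chr3:10026424-10026453, plus strand): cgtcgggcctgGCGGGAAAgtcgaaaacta
FANCA (chr16:89816801-89816830, minus strand): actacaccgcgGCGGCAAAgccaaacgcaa
FANCC (chr9:95317737-95317766, minus strand): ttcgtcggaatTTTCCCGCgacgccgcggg
MSH6 (chr2:47783137-47783166, plus strand): ctccccccagaTTTCCCGCcagcaggagcc
PMS2 (chr7:6009131-6009160, minus strand): cgggaagtattTTTGCCGCcccgcccggaa
FANCC holds a second word 172 bases before its start, on the other strand. The word of MSH3 begins 107 bases before its start, and those of EXO1, XRCC2 and MSH6 lie just after the start. The 8 genes with a word had a median log2 fold change of 0.75 in DU145 and the 25 without had 0.85. For CCAAT the medians were 0.92 in the genes with it and 0.70 in those without, and for TTTGAA 0.71 and 0.85; none of these splits was tested. EXO1 and FANCD2 carry a word and rose strongly, MSH3 carries overlapping words and was not called, and BRCA1, BARD1, BLM and RAD54L rose strongly with no such word in the window. These matches describe the letters of the window only.

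Other genes of the same pathways had a smaller median than the 36. Of 41 further homologous recombination, Fanconi and mismatch repair genes, 25 rose and 1 fell in DU145, with a median log2 fold change of 0.46. POLQ, the polymerase of microhomology-mediated joining, rose from 122 ± 48.9 to 599 ± 168, a log2 fold change of 2.31 (adjusted p = 0.0012). CLSPN, the adaptor through which ATR reaches CHEK1, rose by 1.67, and DNA2, a nuclease that works beside EXO1, by 1.62. FAAP100, a partner of FANCB and FANCL in the Fanconi core, fell from 1031 ± 48.7 to 612 ± 19.8, a log2 fold change of -0.75 (adjusted p = 0.0002). In GALNT7 KD, 5 of the 41 had an unadjusted p under 0.05, a threshold at which all genes were not counted. There limma and edgeR called 0 of the 41 and DESeq2 called 2. Over all 17906 genes tested there, DESeq2 called 1490 higher and 1176 lower.

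Repair pathways outside these had smaller medians in DU145, and their counts are to be read against the 22.9% of all genes that rose and the 20.5% that fell. For non-homologous end joining and the 53BP1 axis, 6 of 16 genes rose and 1 fell, with a median of 0.35. XRCC6 and XRCC5, the Ku subunits that cap broken ends, rose by 0.87 and 0.70, SHLD2 of the shieldin complex rose by 0.59, and the gap-filling polymerase POLM fell by 0.66 on the log2 scale. For base excision and single-strand break repair, 13 of 21 rose and 2 fell, with a median of 0.39. The glycosylase NEIL3 rose by 2.14, TDP1 by 1.20 and UNG by 1.10, while its relative NEIL1 went from 284 ± 16.4 to 84.7 ± 29.4, a log2 fold change of -1.79 (adjusted p = 0.0015), and the glycosylase MPG had one of -0.57. For nucleotide excision repair, 6 of 20 rose and 3 fell, shares near those of all genes, with a median of 0.24: the damage sensors DDB2, CETN2 and XPA rose by 1.07, 0.54 and 0.48, and UVSSA, XPC and ERCC2 had log2 fold changes of -0.59, -0.47 and -0.35.

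In the knockdown, limma called 0 of the 16 end joining genes, 2 of the 21 base excision genes and 1 of the 20 nucleotide excision genes, where 5.28% of all genes rose and 3.79% fell. At an unadjusted p under 0.05 the counts were 1, 6 and 2, with no count over all genes. With edgeR the counts were 0, 2 and 1, and DESeq2 called 1, 5 and 2. Over all 17906 genes, edgeR called 884 higher and 662 lower, and DESeq2 called 1490 higher and 1176 lower. The glycosylases UNG and TDG, both on chromosome 12, fell from 4727 ± 34.5 to 4207 ± 60.6 and from 2719.8 ± 95.5 to 2105 ± 92.6, log2 fold changes of -0.17 (adjusted p = 0.045) and -0.37 (adjusted p = 0.013), and both rose in DU145. The median of the chromosome 12 genes other than RAD51AP1 was -0.28 in the knockdown. UNG fell less than that median and TDG more. ERCC1, a nuclease subunit of nucleotide excision and crosslink repair, rose from 582 ± 14.5 to 753 ± 61.8, a log2 fold change of 0.37 (adjusted p = 0.046).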

How the data were processed

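RNA-seq of CWR22Rv1 (shControl, GALNT7 KD) and DU145 (OE control, GALNT7 OE) was analysed, with 3 libraries per group. The deposited signal is a normalised count per gene, which the authors made by dividing the reads on each gene by 1 size factor per library, in 1 table per cell line. The submitters' processing notes name FastQC, Salmon, DESeq2, R 3.5.3 and hg38; libraries were poly(A) selected and stranded. Salmon estimates how reads divide between overlapping or near-identical genes, so values of such genes are uncertain. Whole reads were recovered by dividing by the value of 1 read: 100% of the values were whole within 0.01. GENCODE 29 gave names, positions and exon lengths, and covered 94.4% of the identifiers.

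Fold changes were fitted with limma 3.58.1 (trended eBayes) in R 4.3.3 on log2(normalised count + 1), within each line, for genes with a mean count of at least 5 over its 6 libraries, so fold changes of low genes are understated. P-values were adjusted by the Benjamini-Hochberg method over all genes tested, with a threshold of 0.05, and each test was two-sided. The 36 genes and the other lists were chosen with earlier results of these data known. All 36 are named, with some of the genes that start within 1000 bases on the other strand or overlap them. Of the other lists, genes called in both lines are named, and up to 3 of the largest changes called in each direction in DU145. ERCC1, the one other gene of those lists called by limma in the knockdown, was named after its value was seen. The cell cycle lists came from Seurat 5.3.0. Scripts were tested on simulated data. Alternatives were pseudocounts of 0.5 and 5, no filter, a mean of at least 20, rescaling to a common 75th percentile, quantile normalisation, no trend, edgeR 4.0.16 and DESeq2 1.42.0 on recovered reads, a replicate block, a threshold of 0.01 and leaving out each library. Same-numbered replicates had correlated deviations of -0.01 to 0.07 (knockdown) and 0.02 to 0.04 (overexpression), so the numbers were not taken to pair the samples. Sums with overlapping genes or pseudogenes were added after seeing the data. Some genes of these pathways were not analysed here.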

Additional observations from a re-analysis of the deposited data

How the results depend on the processing

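In DU145 the number of repair genes called was 28 and stayed within 1.5 times of it under every alternative tried, with 25 to 27 when 1 library was left out. The number of all genes called was 8132, 5303 at an adjusted p of 0.01, and 6749 to 7610 when 1 library was left out. The median log2 fold change of the homologous recombination group (0.94) was 0.84 after rescaling to a common 75th percentile and 0.87 after quantile normalisation, that of the Fanconi group (0.89) was 0.80 after rescaling, and leaving out 1 library gave 0.86 to 0.99 and 0.79 to 0.98, and 0.23 to 0.44 for mismatch repair. Rescaling to the 75th percentile moved the median of all genes by -0.097. In the knockdown the number of repair genes called was 1, and 0 without the filter, without the trend and at 0.01, 2 with a mean of at least 20, 10 with DESeq2 and 0 to 2 when 1 library was left out. The number of all genes called was 1623, and 996 without the trend, 2666 with DESeq2, 392 at 0.01 and 525 (without GALNT7 KD replicate 1) to 1332 when 1 library was left out, the drop being over 1.5 times for every library except GALNT7 KD replicate 3. The knockdown medians with 1 library left out ran from -0.110 to -0.024 (homologous recombination), from -0.042 to 0.0086 (Fanconi, above 0 without GALNT7 KD replicate 3) and from -0.123 to 0.0052 (mismatch repair, above 0 without shControl replicate 2). The cause of these moves was not tested, apart from the smaller number of samples when a library was left out.

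With the replicate block the knockdown gave 0 repair genes and 1002 genes in all; NBN in the knockdown (adjusted p = 0.067) and PMS2 in DU145 (adjusted p = 0.063) were lost and ATM in DU145 was gained (adjusted p = 0.048), and the block changed no other call of a repair gene. The direction of 2 uncalled genes in the knockdown changed with the scaling or tool: RAD51C, 0.01 in the fit reported, was -0.0097 after rescaling and -0.0081 after quantile normalisation, and FANCL, also 0.01, was -0.014, -0.0094, -0.0043 (edgeR) and -0.0016 (DESeq2). Leaving out 1 library changed the sign of these uncalled genes in the knockdown, with log2 fold changes from -0.13 to 0.068 for BLM, -0.17 to 0.24 for BRCA2, -0.032 to 0.12 for FANCA, -0.33 to 0.12 for FANCB, -0.14 to 0.050 for FANCC, -0.057 to 0.0057 for FANCI, -0.094 to 0.16 for FANCL, -0.20 to 0.15 for FANCM, -0.12 to 0.0052 for MSH6, -0.035 to 0.064 for RAD51C, -0.15 to 0.30 for RAD51D and -0.15 to 0.045 for RAD54L, and in DU145 from -0.094 to 0.033 for FANCL and -0.21 to 0.77 for RAD51D.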
